A study of Mus musculus with 12 samples.

Results

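Vascular genes were followed in the retina of mice that lacked Pkm2 in rods. The set held 9 genes of the 56748 in the deposited table, chosen by symbol from cell type markers in general use. The choice did not use their values, but it was made with earlier results of these data known. Of these, 7 mark endothelial cells (Cldn5, Pecam1, Cdh5, Kdr, Tek, Flt1 and Vwf) and 2 mark pericytes (Pdgfrb and Rgs5). All 9 genes were found by symbol and all 9 passed the filter on low values in every comparison, Cdh5 in rods through the Rodko group only. RNA was sequenced from the whole retinal lysate (input, called retina) and from polyribosomes immunoprecipitated from rods (Rod-TRAP, called rods). The Ribo-Tag allele gives ribosomes an HA tag where Cre is active, so that an antibody to HA pulls down the ribosomes of Cre-expressing cells with their mRNA. Every mouse carried this allele on both chromosomes and an i75 Cre transgene under the rhodopsin promoter. Control mice, designated WT by the authors, had 1 floxed Pkm2 allele and are called Pkm2 Rodhet. Pkm2 Rodko mice had both alleles floxed. The controls were therefore heterozygous, and every group used here carried Cre. With 2 genotypes in 2 fractions there were 4 groups of 3 libraries. The deposited description gives an age of 2 weeks and the methods an age of 2 months. Whether a library came from 1 mouse or from pooled retinas is not given in the sources used here, so p-values measure the spread between these libraries.

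The deposited values were reads per gene divided by a size factor that had been set separately for rods and for retina. Reads were recovered from them, and the 12 libraries held between 13458891 and 22790070 reads on genes. For rods against retina the reads were rescaled to 1 common scale over all 12 libraries with TMM factors, and these values are called normalised reads. Pkm, the gene that encodes both PKM1 and PKM2, had 52141, 51049 and 54504 deposited units in the Rodhet rods libraries and 23751, 22553 and 22246 in the Rodko rods libraries. Its log2 difference in rods was -1.20 (standard error 0.0838, limma adjusted p = 5.36e-05), in the direction of the genotype labels. In retina the difference was -0.65 (standard error 0.0742, limma adjusted p = 0.0219). All 10 rod marker genes were higher in rods than in retina, with a median log2 difference of 1.91 in each genotype.

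The retina is fed from the inner side by its own vessels, whose endothelial cells are sealed by tight junctions and wrapped by many pericytes, and from the outer side by the choroid. VEGF made by neurons and glia acts on endothelial cells through the receptors that Kdr and Flt1 encode, angiopoietins act through the receptor that Tek encodes, and PDGF released by endothelial cells holds pericytes at the vessel through the receptor that Pdgfrb encodes. Rods are neurons and form no part of these vessels. In bulk RNA, fewer cells of a type and less RNA per cell cannot be told apart.

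Promoter sequences of 5 of the 9 genes (Cldn5, Kdr, Tek, Flt1 and Rgs5) were taken from the RefSeq table on GRCm38.p6. Each spans 250 bases before to 50 bases after the start. The table held none for Pecam1, Cdh5 and Vwf, and that of Pdgfrb is not reported here. Those of the 3 receptor genes and of Cldn5 are printed 5′ to 3′ to show how the starts of these genes, all of them lower in rods, differ in sequence. Capitals mark GGAA, the core letters bound by ETS family factors such as ERG, searched on both strands so that TTCC marks the reverse strand.
Kdr promoter, chr5:75978406-75978705, minus strand: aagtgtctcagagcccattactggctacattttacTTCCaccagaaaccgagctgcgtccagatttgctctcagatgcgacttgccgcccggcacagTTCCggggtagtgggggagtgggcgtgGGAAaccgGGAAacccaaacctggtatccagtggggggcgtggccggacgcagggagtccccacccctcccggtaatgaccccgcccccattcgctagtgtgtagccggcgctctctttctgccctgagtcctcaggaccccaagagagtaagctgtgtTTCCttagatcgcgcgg
Flt1 promoter, chr5:147725962-147726261, minus strand: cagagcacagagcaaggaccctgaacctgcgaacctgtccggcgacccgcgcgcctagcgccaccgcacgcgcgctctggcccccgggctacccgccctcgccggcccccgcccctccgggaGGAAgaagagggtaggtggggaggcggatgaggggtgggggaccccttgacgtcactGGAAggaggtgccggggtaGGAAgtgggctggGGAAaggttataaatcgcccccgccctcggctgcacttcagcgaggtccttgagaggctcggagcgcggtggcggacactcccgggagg
Tek promoter, chr4:94739039-94739338, plus strand: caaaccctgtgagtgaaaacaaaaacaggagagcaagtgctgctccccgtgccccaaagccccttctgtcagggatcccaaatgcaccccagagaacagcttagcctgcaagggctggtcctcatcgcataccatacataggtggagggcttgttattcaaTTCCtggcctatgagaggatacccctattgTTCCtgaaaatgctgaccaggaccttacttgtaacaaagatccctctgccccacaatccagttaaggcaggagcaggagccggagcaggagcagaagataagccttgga
Cldn5 promoter, chr16:18776597-18776896, plus strand: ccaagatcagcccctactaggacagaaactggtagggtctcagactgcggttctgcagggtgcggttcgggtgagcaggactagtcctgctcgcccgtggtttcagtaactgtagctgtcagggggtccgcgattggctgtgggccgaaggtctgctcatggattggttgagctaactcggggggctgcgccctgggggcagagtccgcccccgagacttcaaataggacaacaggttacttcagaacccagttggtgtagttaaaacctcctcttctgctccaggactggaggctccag
GGAA occurred 5 times in the Kdr window, 4 times in Flt1, 4 times in Rgs5, 2 times in Tek and 0 times in Cldn5. It is a common run of letters, present in 96.0% of the 32851 promoters of this length. The longer CAGGAA, which contains GGAA, was held by 30.6% of all promoters and, among the 5, by Tek at both of its GGAA positions and by Rgs5 at 1 of its 4. CCGGAA, which also contains GGAA, was held by 14.9% of all promoters and by Kdr among the 5. A TATAAA was present in 13.6% of promoters and in that of Flt1, 31 bases before the start. G and C made up 70.7% of the Flt1 window and 52.0% of the Tek window. These matches describe letters and not bound sites.

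Per length of exon, the 9 genes spanned a wide range in Rodhet retina. In RPKM (reads per kilobase of exon, scaled by TMM library size), Kdr was highest at 12.04 ± 2.02 (SD, n = 3), then Rgs5, a regulator of G protein signalling, at 8.41 ± 1.14 and Flt1 at 5.11 ± 0.226. Cldn5, a claudin of the endothelial tight junction, followed at 2.36 ± 0.357 and Pdgfrb at 1.91 ± 0.133. Pecam1, an adhesion molecule of endothelial contacts, was at 0.760 ± 0.0478, Tek at 0.601 ± 0.112, Cdh5, the cadherin of endothelial junctions, at 0.517 ± 0.0681 and Vwf, the clotting factor carrier stored in endothelial cells, at 0.286 ± 0.0307. Libraries of neighbours in this order did not overlap except for Cldn5 with Pdgfrb, Pecam1 with Tek and Tek with Cdh5. The order was the same in Rodko retina, where Kdr and Rgs5 also overlapped. In Rodhet rods Kdr stayed first at 1.56 ± 0.308, and Pecam1 stood between Flt1 and Cldn5 at 0.451 ± 0.125. Cdh5 was last at 0.0164 ± 0.0283.

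Kdr, Flt1 and Tek, the endothelial receptor tyrosine kinases of the set, were between 7.70-fold and 12.4-fold lower in rods than in retina. Kdr had 229, 313 and 223 normalised reads in the Rodhet rods libraries and 2313, 1917 and 1660 in Rodhet retina. Its level in rods was 7.70-fold lower, a log2 difference of -2.94 (standard error 0.179, limma adjusted p = 1.49e-09). Every rods library lay far below every retina library. In Rodko mice Kdr had 156, 160 and 227 normalised reads in rods against 1421, 1966 and 2051 in retina, a log2 difference of -3.32 (limma adjusted p = 3.44e-10). Flt1, whose product binds VEGF tightly and signals weakly, had 133, 198 and 151 normalised reads in Rodhet rods and 1258, 1185 and 1293 in Rodhet retina, 7.75-fold lower in rods (log2 difference -2.97, standard error 0.161, limma adjusted p = 4.99e-10). In Rodko it had 72.9, 82.9 and 114 in rods and 1051, 1059 and 1235 in retina, 12.4-fold lower (log2 difference -3.64, limma adjusted p = 4.96e-11). The Flt1 libraries of the fractions did not overlap in either genotype. Tek was measured on few reads, 15 over the 3 Rodhet rods libraries against 187 in Rodhet retina. It had 4.91, 7.44 and 6.36 normalised reads in Rodhet rods and 44.9, 62.1 and 46.4 in Rodhet retina, a log2 difference of -2.85 (standard error 0.39, limma adjusted p = 1.21e-05). In Rodko the Tek difference was -2.99.

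**Figure D1:**
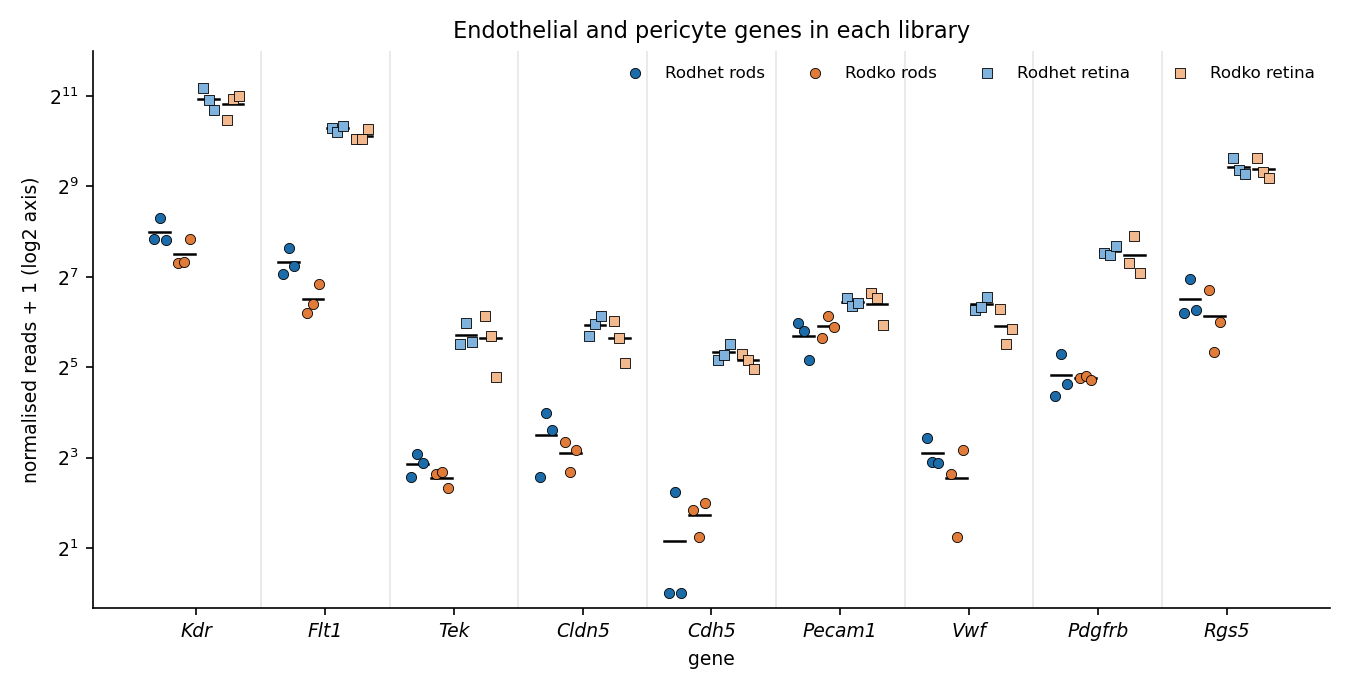
Normalised reads plus 1 on a log2 axis for the 9 genes in each of the 12 libraries. Circles are rods libraries, squares are retina libraries, colours give the genotype and bars the group means. Rods libraries lay below all retina libraries of their genotype for 8 genes, and for Pecam1 the fractions were close, with overlap in Rodko. For how many of all genes the fractions did not overlap was not counted. By adjusted p, 35.5% of all genes were lower in rods in Rodhet and 35.1% in Rodko.

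The junction genes did not move alike. Cdh5 was the lowest of the set in rods, with 0, 4 and 0 reads in the Rodhet rods libraries and 42, 42 and 62 reads in Rodhet retina. A count of 0 allows up to 3 reads, for counting error only. The log2 difference was -4.58 (standard error 0.552, limma adjusted p = 3.19e-06). In Rodko rods it had 2, 1 and 3 reads, against 43, 46 and 32 in retina, and the difference was -3.45 (limma adjusted p = 5.66e-05). Cldn5 had 4.91, 14.9 and 11.1 normalised reads in Rodhet rods and 50.7, 61.2 and 68.9 in Rodhet retina, a log2 difference of -2.54 (standard error 0.401, limma adjusted p = 5.19e-05). Its rods libraries varied among themselves, with a coefficient of variation of 48.9% on 26 reads in all, and still did not reach the retina range. In Rodko the Cldn5 difference was -2.53. Vwf had 9.82, 6.51 and 6.36 normalised reads in Rodhet rods and 75.6, 80.1 and 92.8 in retina, and its differences were -3.31 in Rodhet and -3.53 in Rodko (limma adjusted p = 9.01e-06 and 4.04e-06).

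Pecam1 had 62.2, 54.9 and 35.0 normalised reads in Rodhet rods and 91.4, 81.0 and 84.1 in Rodhet retina. The libraries did not overlap, but the gap was small, 1.69-fold (log2 difference -0.78, 95% confidence interval -1.32 to -0.24, limma adjusted p = 0.0151). The call rested on single libraries. Without Rodhet rods replicate 3 the difference was -0.54 (limma adjusted p = 0.074), and without Rodhet retina replicate 1 it was -0.73 (limma adjusted p = 0.0514). In Rodko Pecam1 had 49.4, 69.3 and 58.3 normalised reads in rods and 98.9, 92.0 and 59.7 in retina. These libraries overlapped at retina replicate 3, and the difference of -0.47 (95% confidence interval -1.01 to 0.067) did not pass (limma adjusted p = 0.122). Without that retina library it was -0.70 and passed (limma adjusted p = 0.037).

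The pericyte genes followed the larger part of the endothelial genes. Rgs5 had 72.0, 123 and 76.3 normalised reads in Rodhet rods and 796, 654 and 620 in Rodhet retina, 7.63-fold lower in rods (log2 difference -2.95, standard error 0.274, limma adjusted p = 1.69e-07). In Rodko it had 104, 39.4 and 63.4 in rods and 795, 634 and 577 in retina (log2 difference -3.35, limma adjusted p = 3.40e-08). Pdgfrb had 19.6, 38.1 and 23.8 normalised reads in Rodhet rods and 184, 179 and 204 in retina, 6.94-fold lower in rods (log2 difference -2.80, standard error 0.256, limma adjusted p = 1.37e-07). In Rodko rods the 3 Pdgfrb values were close together at 26.0, 27.2 and 25.2, against 158, 238 and 135 in retina, and the difference was -2.67. No library of either gene overlapped between fractions.

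Counted over the set, 9 of 9 genes were lower in rods than in retina in Rodhet and 8 of 9 in Rodko at a limma adjusted p under 0.05. Of all 25584 genes tested, 35.5% were lower in rods by this rule in Rodhet and 35.1% in Rodko, and 23.5% and 23.9% were higher. The median log2 difference of the 9 genes was -2.94 in Rodhet and -3.32 in Rodko, beside -0.37 and -0.32 over all genes tested. The scaling sets the last values. With libraries scaled by their total reads the median of all genes was -0.76 in Rodhet, and 85.3% of the called genes were lower in rods where TMM gave 60.2%. Relative to the median of all genes, Pecam1 was 0.41 lower in Rodhet and the other 8 genes were at least 2.18 lower.

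The level in rods as a percent of the level in retina put Pecam1 apart from the other 8 genes. In Rodhet, Cdh5 kept 3.16% of its retina level, Vwf 9.13%, Tek 12.2%, Flt1 12.9%, Kdr 13.0%, Rgs5 13.1%, Pdgfrb 14.4% and Cldn5 17.1%, while Pecam1 kept 59.3%. In Rodko the values ran from 6.74% for Cdh5 to 15.4% for Cldn5, and Pecam1 kept 70.7%. Apart from Pecam1, neighbours in this order are not resolved. In Rodhet the 95% counting intervals were 1.18% to 11.4% for Cdh5, on 4 reads in rods, and 5.065% to 14.3% for Vwf. They were 7.02% to 21.7% for Tek, 12.1% to 14.9% for Flt1 and 12.5% to 14.8% for Kdr. For Rgs5 the interval was 12.2% to 16.2%, for Pdgfrb 11.9% to 19.9% and for Cldn5 11.8% to 27.9%. Those of neighbours overlap. The interval for Pecam1, 48.3% to 74.4%, lay above those of the other 8 genes. These intervals come from the raw reads and cover counting error only. Under scaling by total reads all percentages were smaller, 40.6% for Pecam1 and at most 11.7% for the others in Rodhet, and the order of the 9 genes in Rodhet was the same.

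**Figure D2:**
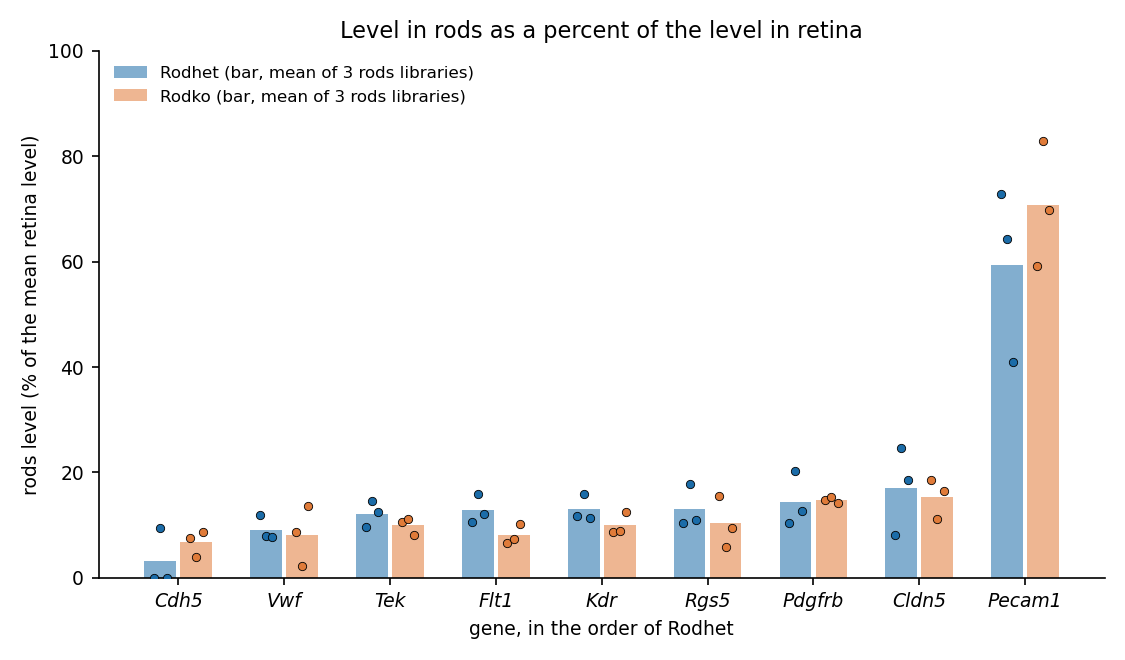
Level in rods as a percent of the mean level in retina of the same genotype, for each gene in the order of Rodhet. Bars are means of 3 rods libraries and points are the single rods libraries. Pecam1 kept 59.3% in Rodhet and 70.7% in Rodko, and the bars of the other 8 genes stayed at or below 17.1%.

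Ratios of reads within a library do not depend on the scaling between libraries, and they were taken after the values of Pecam1 were seen. The ratio of Pecam1 to Kdr ran from 0.157 to 0.432 in the 6 rods libraries and from 0.0291 to 0.0696 in the 6 retina libraries. The ratio of Pecam1 to Cldn5 ran from 3.14 to 12.8 in rods and from 1.22 to 1.86 in retina. Pecam1 was higher relative to each of the other 8 genes in all 6 rods libraries than in any retina library. For Cdh5, 2 rods libraries had no reads, so their ratio has no value and was counted as higher. By contrast, the ratio of Kdr to Flt1 ran from 1.47 to 2.14 in rods and from 1.28 to 1.86 in retina, so the fractions overlapped. The ratio of Rgs5 to Pdgfrb overlapped as well. Whether the Pecam1 reads of the rods fraction came from rods or from other cells was not tested.

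The wider vascular lists were lower in rods with named exceptions. Of 19 other endothelial genes, 18 were lower and 1 was higher in rods in Rodhet, with a median log2 difference of -2.94. The lowest were Abcb1a, a drug efflux pump of barrier endothelium, at -3.61 and Sox18, an endothelial transcription factor, at -3.54. The highest were Nos3, the endothelial nitric oxide synthase, at -2.08 and Podxl, a sialomucin of the cell surface, at 1.25. Podxl had 9468 ± 664 normalised reads in Rodhet rods against 3994 ± 325 in retina and made up most of the summed level of its list. Of 16 other mural genes (pericyte and smooth muscle), 13 were lower, 1 was higher and 2 did not pass, with a median of -2.54. In Rodhet, Abcc9, a subunit of the potassium channel of pericytes, was the lowest mural gene at -4.47, then Cox4i2, a subunit of cytochrome oxidase, at -3.61. Vtn, which encodes vitronectin and is also known from photoreceptors, was highest at 2.07, with 49526 ± 6165 normalised reads in Rodhet rods, then Cnn1, a smooth muscle calponin, at -1.38, which did not pass (limma adjusted p = 0.331). In Rodko the counts were 18 lower and 1 higher for the endothelial list and 11 lower and 1 higher for the mural list. The lowest mural gene there was Notch3, the Notch receptor of mural cells, at -4.13, and Abcc9 was at -2.93.

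The markers of other retinal cells gave similar values. Müller glia genes were lower in rods in 9 of 9 cases in Rodhet with a median log2 difference of -2.90, microglia genes in 9 of 9 with -3.08, and bipolar cell genes in 7 of 8 with -3.13, with Prkca at -0.05 not passing. Blood genes had a median of -2.24, and genes of choroid and pigment epithelium one of -2.43. Summed over its list, the level in rods as a percent of retina in Rodhet was 13.9% for the 7 endothelial genes and 13.4% for the 2 pericyte genes. Kdr and Flt1 made up most of the endothelial sum in retina, and Pecam1 alone kept 59.3%. The other endothelial list was at 184.4%, mostly from Podxl, and the other mural list at 372.3%, mostly from Vtn. Müller glia genes were at 14.5%, microglia at 11.5%, choroid and pigment epithelium at 14.9% and blood at 17.7%. Bipolar genes kept 33.3%, with Prkca among them. No gene of these lists was at 0 in all rods libraries except Slc4a1 of the blood list. The part that RNA of other cells in the immunoprecipitate had in the rods values of the 9 genes was not tested.

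**Figure D3:**
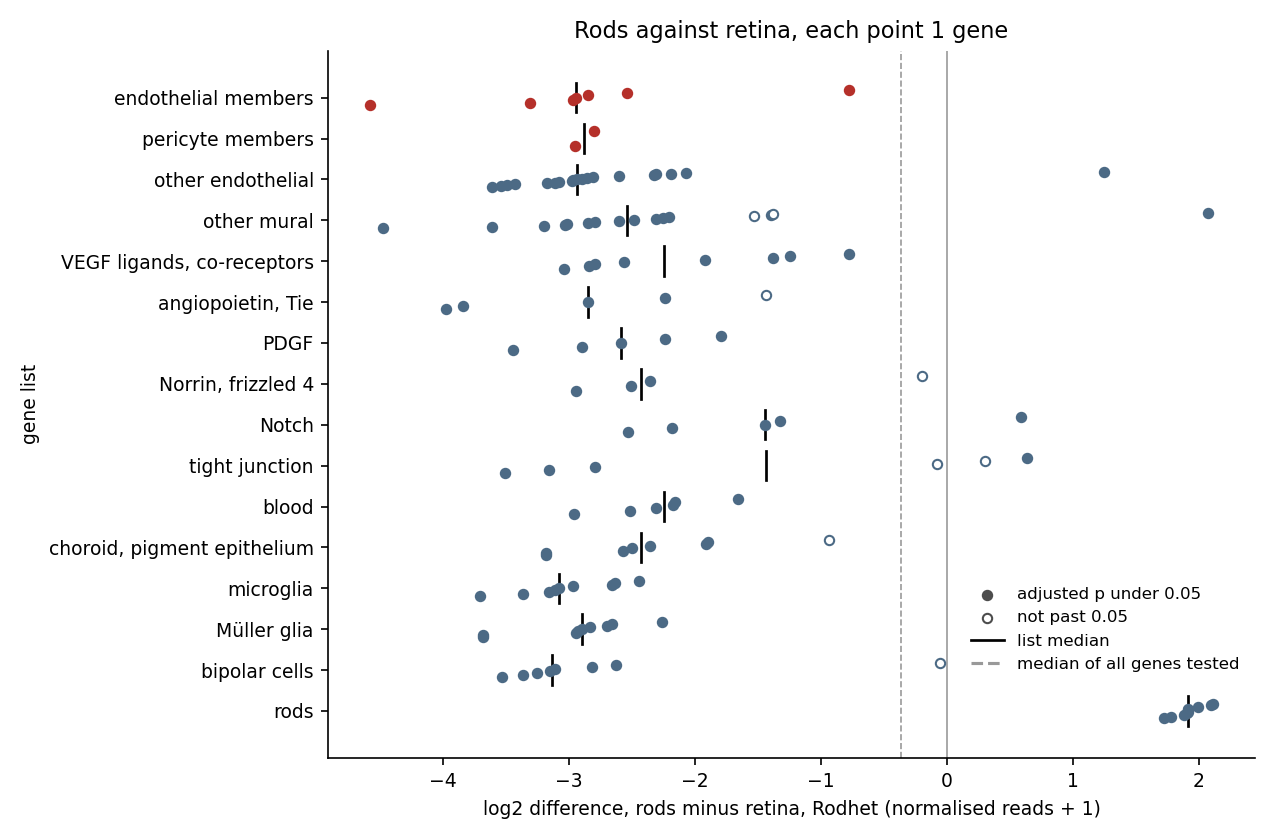
Log2 difference between rods and retina in Rodhet for each gene of 16 lists. Filled points passed a limma adjusted p of 0.05, open points did not, and black bars are list medians. The 9 genes of the set are red, at -4.58 to -0.78, the rod markers lie between 1.73 and 2.11, and the dashed line is the median of all genes tested at -0.37.

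Ligands and partners of the receptors were lower in rods in most cases. All 8 genes of the VEGF list passed in Rodhet. Vegfa, the main ligand of Kdr, had 736 ± 219 normalised reads in Rodhet rods and 1861 ± 97.7 in retina (log2 difference -1.38), and Vegfb, a ligand of Flt1, was at -0.78. The lymphatic receptor gene Flt4 was at -1.25, and the ligand genes were at -1.92 for Vegfc, -2.84 for Vegfd and -2.56 for Pgf. The co-receptor genes Nrp1 and Nrp2 were at -2.79 and -3.04. Of 5 genes around the angiopoietin receptors, 4 passed. The ligand genes Angpt1 and Angpt2 were at -2.85 and -2.24, and Angpt4 was at -1.44 without passing. Tie1, the partner of the Tek product, was at -3.97 and Ptprb, a phosphatase that acts on it, at -3.84.

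All 5 PDGF genes were lower in rods. Pdgfb, the ligand for the receptor on pericytes, was at -2.24, Pdgfa at -1.80, Pdgfc at -2.90, Pdgfd at -2.59 and Pdgfra, the receptor of retinal astrocytes, at -3.44. Of the Norrin receptor complex, which acts on the endothelium of retinal vessels, Ndp, Lrp5 and Tspan12 were at -2.51, -2.94 and -2.36. Fzd4, the frizzled receptor of that complex, was at -0.20 and did not pass (519 ± 104 normalised reads in Rodhet rods, 588 ± 18.3 in retina). In the Notch list Dll4, Notch1, Notch4 and Hey1 were lower at -2.53, -2.18, -1.44 and -1.33, and the ligand gene Jag1 was higher at 0.59. In the tight junction list F11r, Jam3 and Cgn were lower at -3.51, -2.79 and -3.16, Jam2 was higher at 0.64, and Tjp1 and Ocln, at -0.08 and 0.30, did not pass. The values near 0 depend on the scaling. With libraries scaled by total reads, Jag1 at 0.04 and Jam2 at 0.09 no longer passed, Fzd4 at -0.75 and Tjp1 at -0.63 were lower in rods, and Podxl at 0.70 and Vtn at 1.52 remained higher. In Rodko the VEGF, angiopoietin and PDGF lists were lower in rods for all of their 8, 5 and 5 genes, and Ocln passed as higher at 0.64.

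Between genotypes, 0 of 9 genes passed a limma adjusted p of 0.05 in rods, while 0.0194% of the 20658 genes tested did. The count was also 0 with edgeR and with DESeq2, here and in the other genotype tests. Over all genes edgeR called 4 and DESeq2 7 of 20658 in rods, and each called 1 of 25590 in retina. For the interaction described below edgeR called 0 and DESeq2 1 of 25584. With so few calls in all, a count of 0 says little on the 9 genes. With DESeq2, Pdgfrb had no adjusted p in rods and could not be called. DESeq2 withholds adjusted p-values from genes of low mean, and Cldn5, Cdh5, Tek and Vwf had lower means in rods than Pdgfrb. The 0 of DESeq2 in rods therefore carries no information on these genes. Flt1 had the lowest p of the set. It had 104, 155 and 117 deposited units in Rodhet rods and 56.8, 65.4 and 89.5 in Rodko rods, with means of 125 ± 26.8 and 70.6 ± 17.0 (SD, n = 3), and the libraries did not overlap (two-sided exact permutation test, p = 0.1). The log2 difference was -0.83 (standard error 0.223, 95% confidence interval -1.31 to -0.35), with an unadjusted limma p of 0.00264 and an adjusted p of 0.932. Over the alternatives the adjusted p of Flt1 ran from 0.0625 to 0.9995. Kdr had 179, 245 and 172.5 deposited units in Rodhet rods and 122, 127 and 179 in Rodko rods, a log2 difference of -0.48 (standard error 0.191, limma adjusted p = 0.932, exact permutation p = 0.2). Its libraries overlapped at the Rodko library of replicate 3. Thus 2 of 9 genes had an unadjusted p under 0.05, beside 4.77% of all genes, and 1 of 9 had groups that did not overlap, beside 9.89%. With 3 libraries a group, 0.1 is the lowest p that an exact two-sided permutation test can reach.

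The other 7 genes had wide intervals in rods. Rgs5 was at -0.44 (95% confidence interval -1.15 to 0.266), Vwf at -0.67 (-1.90 to 0.567), Cldn5 at -0.30, Tek at -0.25, Pdgfrb at 0.00, Pecam1 at 0.25 (-0.36 to 0.86) and Cdh5 at 0.82 on 4 and 6 reads in all. For these genes neither a change nor its absence can be read from 3 libraries a group. Of the rods libraries, Rodhet replicate 2 was highest for 7 of the 9 genes (all but Pecam1 and Vwf). The same library had the highest summed level of Müller glia genes, 11266 normalised reads against 7628 to 10934 in the other rods libraries, and of bipolar genes, 7273 against 5305 to 7008. Its sum of blood genes was the highest as well, 372.1 against 78.8 to 343.4. It had the lowest sum of rod genes, of microglia genes, 69.8 against 77.5 to 170.1, and of choroid and pigment epithelium genes, 292.1 against 336.0 to 1520. Without it the Flt1 difference was -0.66 and still had an unadjusted p under 0.05 in limma, and the Kdr difference was -0.33 and did not. Müller glia genes were lower in Rodko rods in 9 of 9 cases, with a median log2 difference of -0.34, and bipolar genes in 7 of 8 with -0.49, none passing the adjusted threshold. Blood genes were lower in 5 of 5 tested with -0.73, and choroid and pigment epithelium genes in 6 of 8 with -0.36. Microglia genes were lower in 7 of 9 with -0.13, and rod genes in 0 of 10 with 0.07. The median of the 9 vascular genes was -0.30, beside 0.01 over all genes tested. The part of these other cells in the Flt1 and Kdr values was not tested.

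**Figure D4:**
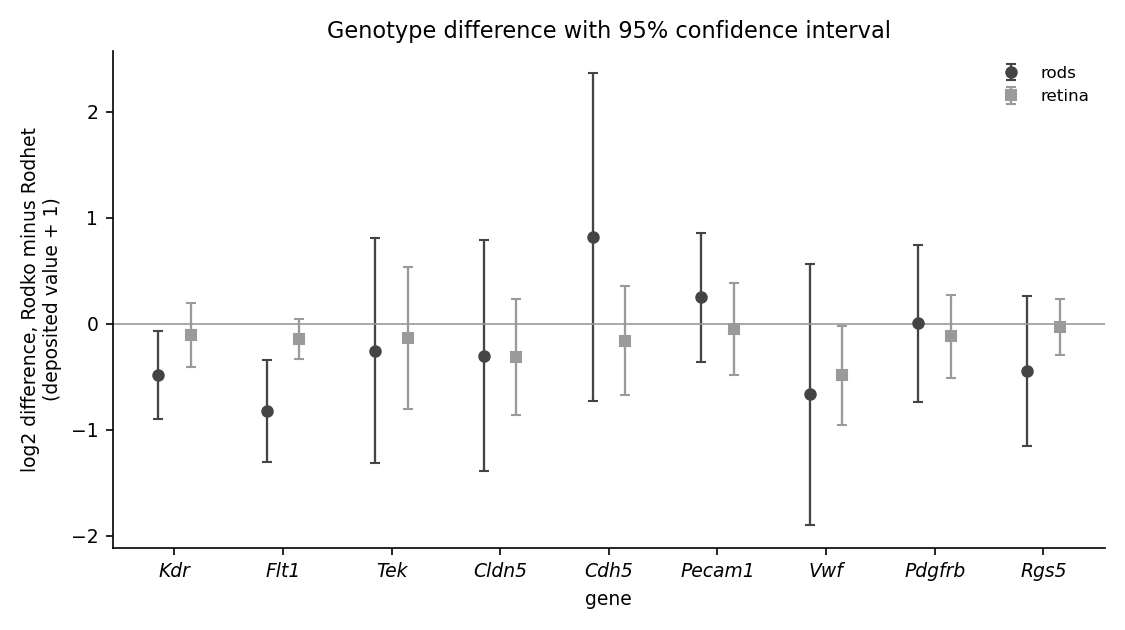
Log2 difference between Pkm2 Rodko and Rodhet on the deposited value plus 1 for the 9 genes, with 95% confidence intervals from limma. Circles are rods and squares are retina. The rods intervals of Flt1 and Kdr and the retina interval of Vwf exclude 0 before adjustment, and no gene passed after adjustment over all genes.

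In retina, where each of the 9 genes had more reads, the genotypes were compared in the same way. Again 0 of 9 genes passed the adjusted threshold, beside 0.00391% of the 25590 genes tested, and 0 of 9 had groups that did not overlap, beside 9.29%. Vwf was the 1 gene with an unadjusted p under 0.05, beside 4.18% of all genes. It had 88.6, 94.9 and 109.8 deposited units in Rodhet retina and 90.7, 53.4 and 68.6 in Rodko retina, a log2 difference of -0.49 (standard error 0.216, limma adjusted p = 0.947, exact permutation p = 0.2). Only Rodko replicate 1 reached the Rodhet range. The differences of the most deeply covered genes were tight. Flt1 was at -0.15 (95% confidence interval -0.34 to 0.044), Kdr at -0.10 (-0.41 to 0.199) and Rgs5 at -0.03. All 9 values were below 0, from -0.49 to -0.03 with a median of -0.13, and the median of all genes tested was 0.00. Müller glia genes, at a median of -0.15, and bipolar genes, at -0.18, were below 0 in 9 of 9 and 8 of 8 cases. Microglia genes were below 0 in 8 of 9 cases, with a median of -0.28, and blood genes in 5 of 6 with -0.26. Choroid and pigment epithelium genes were below 0 in 4 of 8 with a median of 0.00, and rod genes in 2 of 10 with 0.08. No gene of the wider vascular and pathway lists passed the adjusted threshold in either fraction. The lowest unadjusted p among them in rods was that of Ndufa4l2, a mitochondrial subunit gene of pericytes, at a log2 difference of -1.92, and in retina that of Angpt2 at -0.77.

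The genotype differences of rods and retina were then compared with each other. For 0 of 9 genes did this interaction pass the adjusted threshold in limma, beside 0.0% of the 25584 genes tested. Flt1 was the 1 gene with an unadjusted p under 0.05, beside 4.42% of all genes. Its rods difference was 0.67 lower than its retina difference on the log2 scale (interaction -0.67, 95% confidence interval -1.16 to -0.19, limma adjusted p = 0.978). The Kdr interaction was -0.37 (-0.91 to 0.167). The rods against retina values of the 2 genotypes come from 1 fit and are given side by side above.

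Between single retina libraries, the endothelial genes did not keep a common order. Rodko replicate 3 was the lowest of the 6 retina libraries for 6 genes (Cldn5, Pecam1, Cdh5, Tek, Pdgfrb and Rgs5), yet Kdr at 2051 and Flt1 at 1235 normalised reads were not low in it. Kdr and Flt1 were lowest in Rodko replicate 1, where Pecam1 and Tek were highest. Tek ran from 26.5 to 69.5 normalised reads over the 3 Rodko retina libraries and Pdgfrb from 135 to 238, while Cdh5 ran from 30.3 to 38.3. The summed level of choroid and pigment epithelium genes differed much more between retina libraries, from 1458 in Rodhet replicate 2 to 10814 in Rodhet replicate 3, and none of the 9 genes spanned as wide a range. Blood genes ran from 657 to 2359. With genotype means subtracted, Kdr had a Pearson correlation of -0.83 with the mean of the other endothelial list over the 6 libraries. With that of the Müller glia genes it had 0.817. For Flt1 these values were -0.645 and 0.7. Kdr and Flt1 had a correlation of 0.386 with each other. With bipolar genes Kdr had 0.725 and Flt1 0.125, and with the other mural list they had -0.782 and -0.185. The other endothelial genes of the set lay between 0.57 and 0.928 with the endothelial list and between -0.879 and -0.538 with Müller glia. Correlations over 6 libraries are imprecise, and from which cells the Kdr and Flt1 reads came was not tested. Over the 6 retina libraries, centred within genotype, the genes most like the mean standardised level of the set included Gm10134, Zfp251, Snhg11, Gm15834, Rps19bp1, Ppfibp1, Hyi, Gm2962 and Oas1a. Their Pearson correlations lay between 0.992 and 0.998 over 6 libraries, picked as the highest among 17532 genes, so they describe these libraries only, and none of them was in a list of vascular genes.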

How the data were processed

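RNA from rods (Rod-TRAP) and retina of Pkm2 Rodhet and Pkm2 Rodko mice was polyA RNA. The authors deposited 1 table of a normalised signal per gene and library, rounded to 1 decimal. Per the labels, the submitters' processing notes name CASAVA 1.8.2, HISAT2, DESeq2, edgeR and the build GRCm39, without roles. Dividing each deposited signal by the value of 1 read in its library gave whole reads, within 0.1 read, for 99.961% of values. The steps match median-of-ratios factors computed over the 6 libraries of a fraction, a scaling that relies on most genes being alike and leaves RNA of other cells uncorrected. Whether counting used strand is not given in the sources used here.

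Genotypes were compared in each fraction with limma 3.58.1 (R 4.3.3, variance trend) on log2(value + 1), for genes with a mean of at least 1 in 1 genotype. Rods against retina and the interaction came from 1 limma fit of the 12 libraries on log2(normalised reads + 1), with recovered reads scaled by TMM (edgeR 4.0.16). The added 1 understates changes of genes with few reads. Benjamini-Hochberg adjustment covered all genes tested, with a threshold of 0.05. Alternatives on the recovered reads were the quasi-likelihood test of edgeR and DESeq2 1.42.0. The fits were tested on simulated data, with changes put only into well-covered genes and both fractions drawn from the same composition. That test therefore covers neither genes with few reads nor the scaling between fractions. Exon lengths came from GENCODE vM21 by gene identifier. Python 3.11.15 with pandas 2.3.3, numpy 2.4.6 and matplotlib 3.10.9 was used.

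The 9 genes, the other lists and the tests were chosen with earlier results of these data known. Named genes are the 9 genes, Pkm, all pathway genes, the 2 highest and 2 lowest genes of the wider endothelial and mural lists by rods against retina in Rodhet, list genes past the threshold in a genotype comparison, and the 10 genes most like the set in retina, of which 1 is not reported here. Prkca, Ndufa4l2 and Slc4a1 were named after their values were seen.

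Same-numbered rods and retina libraries of a genotype deviated together from their group means (correlation over 16352 genes from 0.145 to 0.344, each highest with its own number), so the numbers pair the fractions. With the replicate block within genotype, 9 of 9 genes were lower in rods in Rodhet and 8 of 9 in Rodko, as without it. Numbers did not pair the genotypes (-0.227 to 0.071).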

Additional observations from a re-analysis of the deposited data

How the results depend on the processing

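For the 8 genes other than Pecam1, all 180 alternative values of rods against retina in Rodhet and all 180 in Rodko were lower in rods and past the threshold, the weakest at a log2 difference of -2.12 in Rodhet and -2.31 in Rodko. With a minimum of 10 reads in every library, 5 genes were called in Rodhet and 4 in Rodko, since 5 of the 9 reach that minimum. Pecam1 in Rodko passed when scaled by total reads (-1.05), with the deposited values (-1.07), with edgeR RLE (-0.58) and with DESeq2 (-0.58). The replicate block changed no call of the 9 genes, and with it the counts stayed at 9 and 8 lower and at 0 for genotype. The block within genotype and limma without the variance trend were added after seeing the data.

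No genotype difference or interaction passed under any alternative run, the lowest adjusted p being 0.0625 (limma) for Flt1 in rods in 1 fit of all 12 libraries. Values near 0 changed sign. Pdgfrb in rods was -0.0864 with edgeR TMM, -0.0946 with edgeR RLE, -0.0809 with DESeq2 and -0.0044 in 1 fit of all 12 libraries. The Cldn5 interaction was -0.0007 with a pseudocount of 0.1, -0.0087 when scaled by total reads, -0.2404 with edgeR TMM, -0.2356 with edgeR RLE and -0.2352 with DESeq2. The Pdgfrb interaction was -0.0579, -0.0527 and -0.0458 in the same 3 tools. The cause was not tested.

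Leaving out each library in turn moved the log2 difference in rods from -0.701 to 0.0009 for Cldn5 and from -0.1919 to 0.2651 for Pdgfrb. In retina the ranges were -0.1804 to 0.1667 for Pecam1, -0.2164 to 0.0677 for Kdr, -0.4281 to 0.2398 for Tek, -0.3514 to 0.0476 for Pdgfrb and -0.1588 to 0.0687 for Rgs5. The interaction ranged from -0.4104 to 0.3299 for Cldn5, -0.5214 to 0.1568 for Tek, -0.6314 to 0.3371 for Vwf and -0.082 to 0.4075 for Pdgfrb. Depth limits Cdh5, Tek, Vwf and Cldn5 most, with 4 to 26 reads over the 3 Rodhet rods libraries.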
